A study of Mus musculus with 24 samples.

Results

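The copy number of 7 genes of adrenergic identity and catecholamine synthesis was followed in neuroblastoma tumours and adrenal glands of transgenic mice. The set holds the enzyme genes Th, Ddc and Dbh and the transcription factor genes Phox2a, Hand2, Gata3 and Isl1. They were taken by name and role, with earlier results of these data known, including the gain at Dbh, and are 7 of 20621 autosomal protein-coding genes. Each gene was placed on the deposited copy number segments by its position in GRCm39, and its level in a sample is the median log2 ratio of the segment that covers it.

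Catecholamines are made from tyrosine in sequence. Tyrosine hydroxylase, encoded by Th, makes L-DOPA, DOPA decarboxylase (Ddc) turns it into dopamine, and dopamine beta-hydroxylase (Dbh) turns dopamine into noradrenaline inside secretory vesicles. Phox2a, Hand2, Gata3 and Isl1 encode DNA-binding proteins that guide neural crest cells to a noradrenergic fate, and in neuroblastoma several of them belong to the regulatory circuit that keeps tumour cells in an adrenergic state. Because Dbh is active in sympathoadrenal cells, its promoter is used to drive Cre in this lineage.

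Shallow whole genome sequencing measured DNA only, so the values below are gene copies and not expression. The segment values cover 5 adrenal glands of mice labelled MYCN fl/wt, CRE + (AGM), 8 neuroblastoma tumours of mice labelled IGF2BP1, CRE + (TI) and 8 neuroblastoma tumours of mice labelled IMP1/MYCN, CRE + (TIM). Of the TI tumours, TI 1 is labelled IGF2BP1 +/- and the other 7 are IGF2BP1 +/+. The remaining 3 samples are adrenal glands labelled CRE - (AG), which served as the reference and have no values of their own here. According to the study, the transgenes lie at Rosa26 behind a stop cassette and are switched on by iCRE, an improved Cre recombinase, under control of Dbh. All 21 samples with values are labelled CRE +, whereas the reference glands are CRE -. The labels give no ages and do not state that each sample came from a separate animal, so p-values measure the spread between these samples.

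Several features of the series bear on the values. A sample was divided into 50 to 57 segments in AGM, 55 to 118 in TI and 48 to 123 in TIM. Sample titles begin with SH or AGH, which the labels do not explain. All AGM and TIM samples have the prefix AGH, whereas 7 of 8 TI tumours and the reference glands have SH, so prefix and genotype cannot be told apart in comparisons of TI. Neither the tumour fraction of each sample nor the number of reads behind a segment was analysed here. A lower share of tumour cells and fewer cells with a gain cannot be told apart in bulk DNA.

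Dbh (ENSMUSG00000000889) lies on the plus strand of chromosome 2 at chr2:27055245-27074212 in GRCm39. The 250 bases upstream of its annotated start, at chr2:27054995-27055244, are shown because they lie inside the gained region described next and next to the gene whose promoter drives Cre. No annotated exon overlaps them. Capitals mark matches to CANNTG, the E-box letters read by factors such as Hand2, and to GATA (TATC on the other strand), the letters read by Gata factors.
Dbh upstream: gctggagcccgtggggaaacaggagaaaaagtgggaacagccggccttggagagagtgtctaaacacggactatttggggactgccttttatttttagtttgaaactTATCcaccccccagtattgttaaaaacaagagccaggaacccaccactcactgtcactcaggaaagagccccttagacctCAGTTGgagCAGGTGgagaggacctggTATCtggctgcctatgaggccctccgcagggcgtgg
On both strands, 2 matches to CANNTG and 2 to GATA were found, none of which overlaps another. At least 1 match to CANNTG occurred in 66.2% and at least 1 match to GATA in 56.0% of the same 250-base windows of all 20621 genes. At least 2 matches, the number at Dbh, occurred in 31.5% of these windows for CANNTG and in 25.1% for GATA. The letters ATTA, a core read by homeodomain factors such as Phox2a and Isl1, did not occur in the window at Dbh, whereas 58.7% of windows held them. The start used here is that of GENCODE. RefSeq starts Dbh 274 bases further downstream, inside the first exon of GENCODE. The 250 bases before the RefSeq start held 3 matches to ATTA, 2 to CANNTG and 0 to GATA. The counts of ATTA and GATA thus depend on the start chosen. These matches are a description of the letters in each window.

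Dbh showed a short gain in 6 of 16 tumours and in 0 of 5 AGM adrenal glands. A gain is a log2 ratio of at least 0.3, the threshold named in the study. The log2 ratio of Dbh was 0.89 in TI 1, 0.0091 in TI 2, 0.0070 in TI 3, 0.90 in TI 4, 0.83 in TI 5, 0.0085 in TI 6, 1.16 in TI 7 and 0.013 in TI 8. In TIM, it was 0.0092 in TIM 1, 0.017 in TIM 4, 0.013 in TIM 5, 0.85 in TIM 7, 0.97 in TIM 8, 0.045 in TIM 9, 0.010 in TIM 11 and 0.0042 in TIM 12. In AGM 1 to 5, it was 0.0133, 0.0152, 0.0135, 0.0136 and 0.0079. The values fall into a high and a low set. The 6 gained tumours had a mean log2 ratio of 0.93 ± 0.12 (SD, n = 6), and the 15 samples without a gain lay between 0.0042 and 0.045. No sample had an intermediate level.

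**Figure D1:**
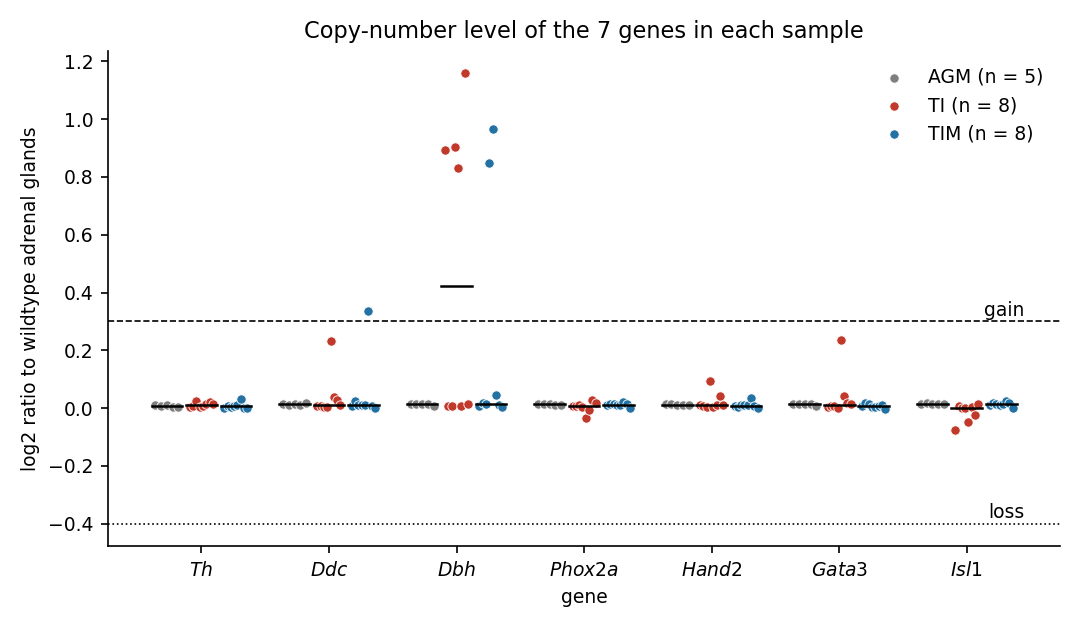
The log2 ratio to wildtype adrenal glands (y axis) is plotted for each of the 7 genes (x axis) in 5 AGM (grey), 8 TI (red) and 8 TIM samples (blue). Each point is a sample, black bars are group medians, and dashed and dotted lines are the thresholds for gain (0.3) and loss (-0.4). Of all points, 6 at Dbh and 1 at Ddc lie above the gain line, and none lies below the loss line.

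Expressed as copies per diploid genome, with a log2 ratio of 0 set to 2 copies, the gained segment was at 3.72 in TI 1, 3.74 in TI 4, 3.55 in TI 5, 4.46 in TI 7, 3.60 in TIM 7 and 3.91 in TIM 8. These are averages over all cells of a sample. The gain was seen in 4 of 8 TI tumours (50%, exact Clopper-Pearson 95% interval 15.7% to 84.3%) and in 2 of 8 TIM tumours (25%, 3.19% to 65.1%). With 0 of 5, AGM allows a share of up to 52.2% by the same method. The intervals cover the number of samples only. TI and TIM did not differ detectably in the number of gains (Fisher's exact test, two-sided, p = 0.608, BH-adjusted over all genes p = 1), and over all genes 0% passed this test. All tumours against AGM gave p = 0.262 by the same exact test.

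Of all 20621 genes, 7.48% were gained in at least 4 of 8 TI tumours, 7.2% in at least 2 of 8 TIM tumours and 7.21% in at least 6 of 16 tumours.

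In TI 1, TI 4, TI 7 and TIM 8, the gained segment had the same ends, chr2:27020001-27160000, and was 140 kb long. In TIM 7, it began at the same position and ended at 27140000 (120 kb). In TI 5, it ran from 26980001 to 27200000 (220 kb). All 6 gained segments shared chr2:27020001-27140000, a stretch of 120 kb. As segment ends lie on a 20 kb grid, ends that differ by less cannot be resolved.

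**Figure D2:**
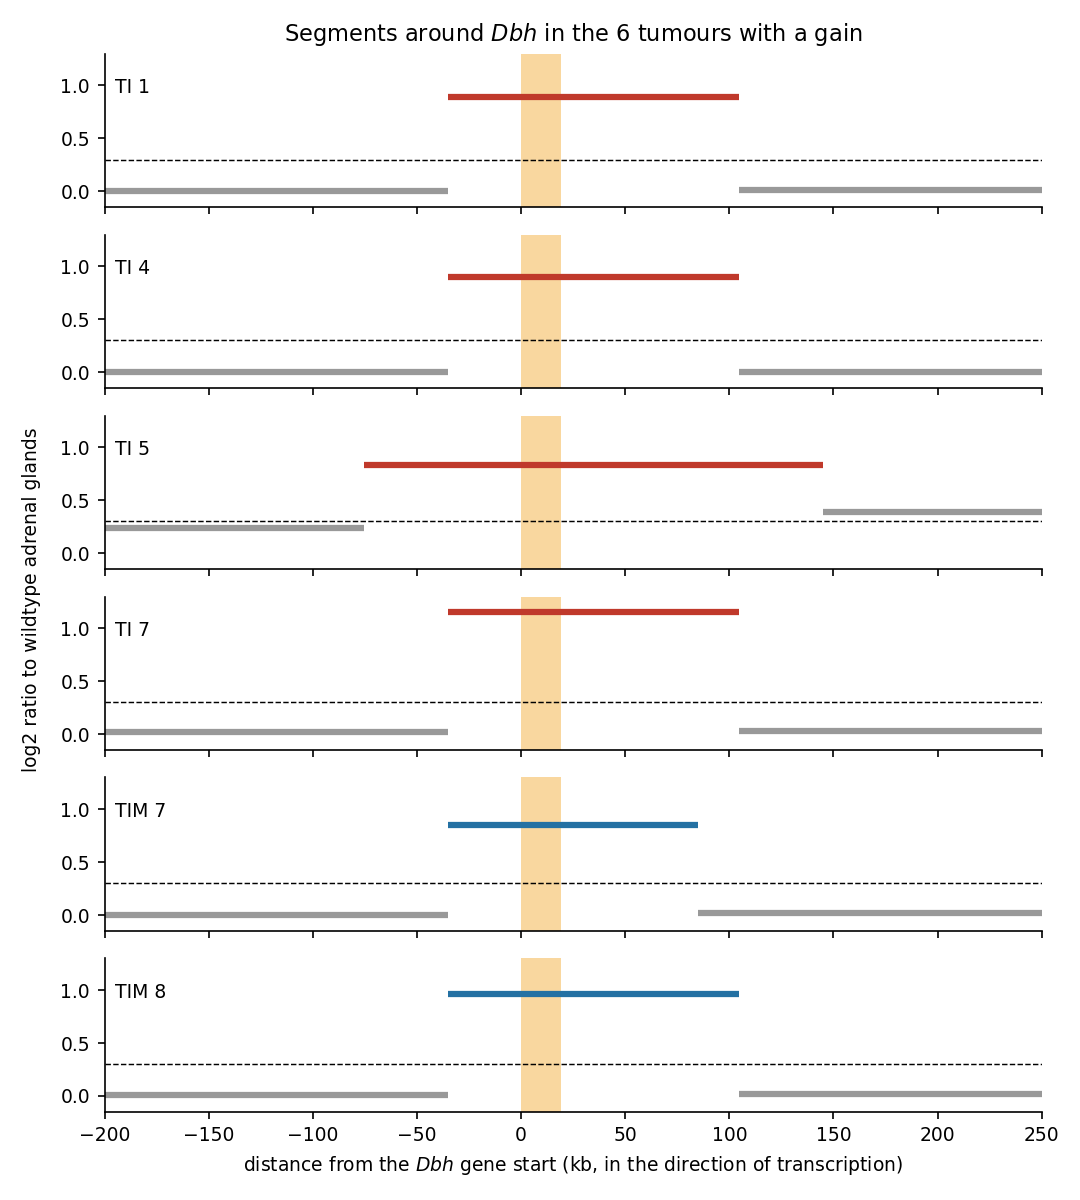
For each of the 6 tumours with a gain at Dbh, horizontal bars give the log2 ratio (y axis) of the gained segment (red, TI; blue, TIM) and of its neighbours (grey) by distance from the Dbh gene start in kb (x axis). The orange band is the gene and the dashed line the gain threshold of 0.3. In 5 of the 6 tumours the step down to both neighbours reaches almost 0, and in TI 5 the neighbours are at 0.24 and 0.39.

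In 5 of 6 tumours, both segments next to the gain had log2 ratios under 0.05 in size. TI 5 differed. Its left neighbour was at 0.24 and its right neighbour at 0.39, so that the region past the threshold continued to 37700000 and spanned 10720 kb. Above the median of chromosome 2 in the same tumour, the segment at Dbh was still 0.82 higher in TI 5, and this excess ranged from 0.82 to 1.13 over the 6 tumours. In 9 of the 21 samples, chromosome 2 formed a single segment.

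The shared stretch holds Dbh whole, starting 35.2 kb before the gene. The 140 kb segment reaches 85.8 kb beyond the end of the gene. Besides Dbh, it covers Sardh, which encodes the mitochondrial enzyme sarcosine dehydrogenase, in full (chr2:27078405-27143451, minus strand). Of Fam163b (chr2:27000392-27033018, minus strand), 39.9% lies inside, and of Vav2, which encodes a guanine nucleotide exchange factor (chr2:27152107-27317156, minus strand), 4.78%. Sardh and Fam163b passed the gain threshold in the same numbers of tumours as Dbh, 4 TI and 2 TIM, and Vav2 in 1 TI tumour. The level of Fam163b averages covered and uncovered parts of the gene and was 0.36 in TI 1, against 0.89 for Dbh. The long non-coding RNA genes Dbhos and Sardhos also lie inside.

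Among short gains, the place at Dbh was the one found in most tumours without being found in AGM. Gained segments under 1 Mb numbered 85 over all samples and fell at 27 places. Of these, 6 places were also gained in AGM. Of the other 21 places, 19 were gained in 1 tumour, and 2 in more than 1 tumour. These were the place at Dbh with 6 tumours and a place on chromosome 14 (chr14:18600001-19240000) with 1 TI and 2 TIM tumours. At places shared with AGM, ends also recurred. On chromosome 6 (chr6:60660001-61020000), 5 AGM, 4 TI and 8 TIM samples were gained, and 16 of them had the same ends. Recurrent ends were thus also seen in AGM.

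The gain at Dbh occurred beside both small and large amounts of gained sequence. TIM 8 had 1.86 Mb of gained segments in all, of which 7.53% lay at Dbh. TI 7 had 254 Mb, of which 0.0552% lay at Dbh. TI 3 had 376 Mb, the most of all samples, without a gain at Dbh. TIM 4, with 1.06 Mb, also had none. AGM had between 1.02 and 1.82 Mb.

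Labels of the tumours were compared with the gain. None of 3 tumours labelled as adrenal (TI 6, TIM 1 and TIM 5) carried it, against 6 of 13 with another site label (Fisher's exact test, two-sided, p = 0.25). Of TI tumours with prefix SH, 4 of 7 were gained, and the 1 TI tumour with prefix AGH was not. Within prefix AGH, 2 of 8 TIM tumours and 0 of 5 AGM were gained. The gain was present in the 1 TI tumour labelled IGF2BP1 +/- and in 3 of 7 labelled +/+. All of these samples are labelled CRE +, so the label does not vary among them, and the part of the Cre construct in the values at Dbh was not tested.

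The level of Dbh passed the test in none of the comparisons between groups. The median was 0.0135 in AGM, 0.42 in TI and 0.015 in TIM. In TI, 4 values lay above the highest and 1 below the lowest AGM value, and in TIM likewise 4 and 1. An exact permutation test of the rank sum gave p = 0.724 for TI against AGM and p = 0.724 for TIM against AGM (BH-adjusted over all genes p = 0.855 and 0.881). TI against TIM gave an exact permutation p = 0.798 (adjusted p = 0.838), with TI higher in 35 of 64 pairs of samples. Centring each sample on its autosomal median moved the comparison of TI with AGM to an unadjusted p of 0.0295 (adjusted 0.0720) and that of TIM with AGM to 0.0319 (adjusted 0.201).

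Gata3 offered a comparison on the same chromosome. It encodes a zinc finger factor needed for sympathoadrenal development and lies 17.2 Mb from Dbh on the minus strand at chr2:9861889-9894845. In AGM, both genes were on the same segment and had the same value in 5 of 5 samples. In TI, Gata3 ranged from 0 to 0.24 (median 0.011), and in TIM from -0.0034 to 0.017 (median 0.0077). The highest value belonged to TI 5, in which the left neighbour of the Dbh segment reaches Gata3.

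Dbh minus Gata3 was at least 0.3 in 4 TI and 2 TIM tumours, the tumours with the gain. In TI, this difference ranged from -0.034 to 1.14, and in TIM from 0 to 0.96. Both genes shared a segment in 3 TI and 4 TIM tumours, where the difference is 0 by construction. In the remaining 1 TI and 2 TIM tumours, the genes had separate segments at near-equal levels. Gata3 itself was gained or lost in 0 of 21 samples.

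**Figure D3:**
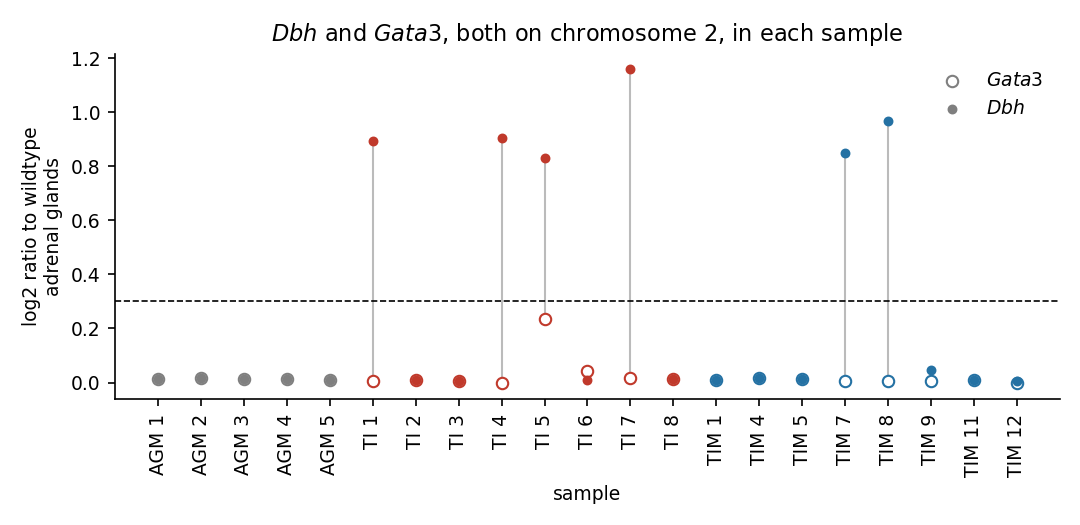
The log2 ratio (y axis) of Dbh (filled) and Gata3 (open), both on chromosome 2, is given for each of the 21 samples (x axis), with AGM in grey, TI in red and TIM in blue, and a line joining both genes of a sample. The dashed line is the gain threshold of 0.3. Only the 6 tumours with a gain at Dbh have the genes far apart, by up to 1.14.

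Of the enzyme genes upstream of Dbh, Th stayed near the reference in each sample. Th (ENSMUSG00000000214, chr7:142443466-142484865, minus strand) encodes the rate-limiting enzyme of catecholamine synthesis. In AGM its log2 ratio lay between 0.0045 and 0.012 (median 0.0075). TI tumours lay between 0.0026 and 0.024 (median 0.010) and TIM tumours between 0.0012 and 0.030 (median 0.0062). The groups overlapped, and Th was neither gained nor lost in any of 21 samples. The exact permutation test gave p = 0.524 for TI against AGM, 0.622 for TIM against AGM and 0.279 for TI against TIM (adjusted p = 0.663, 0.785 and 0.489).

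Ddc was the other enzyme gene past the gain threshold, in a single tumour. Ddc (ENSMUSG00000020182, chr11:11762602-11848150, minus strand) lies on chromosome 11. Its log2 ratio was 0.34 in TIM 9, a gain in 1 of 8 TIM tumours (12.5%, exact Clopper-Pearson 95% interval 0.316% to 52.7%). The next highest value was 0.23 in TI 5, below the threshold. The other 14 tumours lay between 0.00045 and 0.037, and AGM between 0.011 and 0.019. Medians were 0.013 in AGM, 0.0094 in TI and 0.011 in TIM, and the exact permutation test gave p = 0.524, 0.435 and 0.878 for TI against AGM, TIM against AGM and TI against TIM (adjusted p = 0.663, 0.670 and 0.894). With Dbh, 2 of the 7 genes were gained in at least 1 tumour. Over all genes, 25.4% were.

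Phox2a and Hand2 stayed between both thresholds in each sample. Phox2a (ENSMUSG00000007946, chr7:101467514-101471933, plus strand) encodes a homeodomain factor that activates noradrenergic genes. Its values lay between 0.012 and 0.016 in AGM, between -0.034 and 0.029 in TI and between 0.0020 and 0.023 in TIM. Hand2 (ENSMUSG00000038193, chr8:57774011-57777677, plus strand), a basic helix-loop-helix factor of sympathetic development, lay between 0.012 and 0.014 in AGM, 0.0035 and 0.095 in TI, and 0 and 0.036 in TIM. The highest of these Hand2 values was TI 4 and the lowest Phox2a value TI 5, and both are small beside the thresholds. By the exact permutation test, Hand2 gave p = 0.622, 0.0653 and 0.382 for TI against AGM, TIM against AGM and TI against TIM (adjusted p = 0.737, 0.395 and 0.620). Phox2a gave exact permutation p = 0.171, 0.833 and 0.279 in the same order (adjusted p = 0.238, 0.911 and 0.489), and Gata3 0.724, 0.0932 and 0.382 (adjusted p = 0.855, 0.395 and 0.620).

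**Figure D4:**
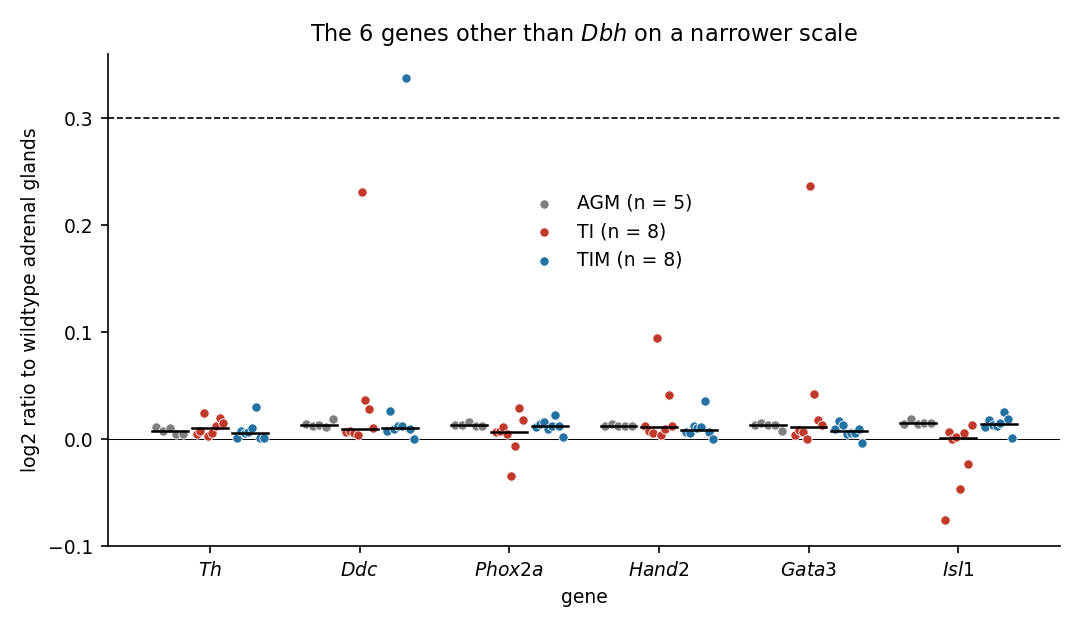
The log2 ratio (y axis, from -0.1 to 0.36) of the 6 genes other than Dbh (x axis) is plotted for 5 AGM (grey), 8 TI (red) and 8 TIM samples (blue), with black bars at group medians and the gain threshold of 0.3 dashed. Most points lie close to 0. Ddc in TIM 9 lies above the threshold, Ddc and Gata3 in TI 5 lie below it at 0.23 and 0.24, and all 8 TI points of Isl1 lie below the AGM points.

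Of the 7 genes, only Isl1 passed the test between groups, by a small difference. Isl1 (ENSMUSG00000042258, chr13:116434817-116446235, minus strand) encodes a LIM-homeodomain factor of sympathetic neurons. Its log2 ratio in AGM 1 to 5 was 0.0146, 0.0187, 0.0146, 0.0153 and 0.0152. In TI, it was -0.075 at the lowest (TI 1), 0.0014 at the median and 0.013 at the highest (TI 8). In TIM, it was 0.0013 at the lowest, 0.014 at the median and 0.026 at the highest. All 8 TI values lay below all 5 AGM values, whereas TIM overlapped with AGM.

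TI was lower than AGM by 0.014 between medians, in 40 of 40 pairs of samples (exact permutation p = 0.00155, the smallest this test gives for 8 against 5 samples without ties, BH-adjusted over all genes p = 0.00991). Of the 7 genes, 1 was lower in TI than in AGM, where 11.3% of all genes were, and 0 were higher, where 6.35% of all genes were. With each sample centred on its autosomal median, Isl1 was still lower in the exact permutation test (adjusted p = 0.0350), and all genes split into 3071 higher and 3331 lower in place of 1309 and 2337. All TI values lay below AGM at 9.33% of all genes. Isl1 was also lower in TI than in TIM, by 0.013 between medians, with 58 of 64 pairs in this direction (p = 0.00466 by exact permutation, adjusted p = 0.0330). Here 10.8% of genes were lower and 10.7% higher. The size of these differences is far from the loss threshold of -0.4, and over all genes the median difference was -0.0052 for TI minus AGM and -0.0045 for TI minus TIM.

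The call for Isl1 depended on the measure and, in TI against TIM, on single tumours. In TI against AGM, leaving out any 1 TI tumour gave an adjusted p of at most 0.0161 by the exact permutation test. With the mean in place of the median log2 ratio of a segment, the adjusted p for TI against AGM was 0.0663. For TI against TIM, leaving out TI 1 raised the adjusted p to 0.0657, and leaving out TI 3, TI 5 or TI 7 raised it to 0.0660. Without the adrenal tumours it was 0.0647. With a difference of means, Isl1 passed in TI against TIM but not in TI against AGM. In TI 8, the TI tumour with the same prefix as AGM, Isl1 was at 0.0134, against 0.0146 for the lowest AGM value. The part of the prefix in the difference was not tested. Segment means at Isl1 were -0.256 in TI 1, -0.226 in TI 5 and -0.172 in TI 7, lower than the medians of the same segments.

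In TIM against AGM, none of the 7 genes passed the adjusted threshold by the exact permutation test, and none had an unadjusted p under 0.05. Over all genes, 0% were higher and 0% lower after adjustment, with 1669 genes at an unadjusted p under 0.05. Losses, at a log2 ratio of at most -0.4, were found at none of the 7 genes in any sample. Over all genes, 9.35% were lost in at least 1 tumour.

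The 6 genes other than Dbh were carried on long segments. The shortest segment covering Th was 5.4 Mb, Isl1 11.7 Mb, Phox2a 15.6 Mb, Gata3 16.2 Mb, Ddc 32.2 Mb and Hand2 76.5 Mb. Dbh lay on segments of at least 10 Mb in 15 samples and on segments under 1 Mb in the 6 gained tumours. The 6 segments under 1 Mb at Dbh were the only ones of this length at any of the 7 genes.

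Genes that share segments in each sample cannot be told apart. The number of other protein-coding genes with exactly the same 21 values was 375 for Hand2, 171 for Phox2a, 153 for Th, 99 for Ddc, 42 for Gata3 and 39 for Isl1. The nearest of them were Fbxo8 and Scrg1 beside Hand2, Clpb and Inppl1 beside Phox2a, Ins2 and Ascl2 beside Th, Fignl1 and Grb10 beside Ddc, Taf3 beside Gata3, and Pelo and Parp8 beside Isl1. For Dbh, 0 other genes had the same values in all samples, but Sardh shared its value in 20 of 21 samples. Only TIM 7 differed, where Sardh reaches beyond the gained segment (0.80 against 0.85), so the gain is not resolved to Dbh alone. On other chromosomes, the pattern most like that of Dbh over 21 samples was found at Pgk2 on chromosome 17 (Pearson r = 0.713), followed by Gm8126 on chromosome 14 (0.655) and Zfp932 on chromosome 5 (0.453). These are descriptions over samples that share libraries and segmentation. Pgk2 was at 0.48 in TI 1 and TI 7 but at 0.0094 in TIM 7, where Dbh was gained. Neither Gm8126 nor Zfp932 passed the gain threshold in any sample. In TIM 7 and TIM 8, both with the gain at Dbh, Gm8126 was at -1.0 and Zfp932 at -5.32, the same as in AGM 1. In TI 4, also gained at Dbh, they were at 0.0017 and 0.0042, so their correlations do not reflect gains shared with Dbh.

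A wider list of 12 adrenergic transcription factors gave the other genes of the circuit. Of these, 4 were gained in at least 1 tumour (33.3%), near the 25.4% of all genes. Tbx2, a T-box factor on chromosome 11, was gained in 6 TI and 1 TIM tumours, with log2 ratios from 0.57 to 0.96 in the gained TI tumours. Sox11, a factor of neural progenitors on chromosome 12, was gained in 5 TI tumours at 0.57 to 0.64 and in 0 TIM tumours. Gata2 was gained in 2 TI and 3 TIM tumours and Hand1 in 1 of each. Both were named after their values were seen. None of the 12 was lost.

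By the exact permutation test with adjustment over all genes, Sox11 was the 1 gene of 12 that was higher in TI than in AGM (adjusted p = 0.00991), where 6.35% of all genes were. With a difference of means, Sox11 no longer passed (exact permutation, adjusted p = 0.0626). In TI against TIM, the exact permutation test found Sox11 higher (adjusted p = 0.00500) and none lower, where 10.7% and 10.8% of all genes were. Tbx2 passed neither test (exact permutation, adjusted p = 0.0616 against AGM and 0.0733 against TIM), but with centring it was higher in both (adjusted p = 0.0126 and 0.0442). In TIM against AGM, 0 of 12 passed.

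Of 14 further genes of catecholamine synthesis, storage and breakdown, 12 lie on autosomes and 4 of these were gained in at least 1 tumour (33.3%), again near the 25.4% of all genes. Maoa and Maob lie on the X chromosome, which was not analysed here. Pnmt, whose enzyme turns noradrenaline into adrenaline after the Dbh step, and Cyb561, a cytochrome that supplies electrons to Dbh in vesicles, both lie on chromosome 11. Each was gained in 7 TI tumours at 0.53 to 0.96 and in 2 TIM tumours at 0.41 to 0.59, with the same values on the same segments. Chga, the chromogranin of the secretory granule on chromosome 12, was gained in 5 TI tumours at 0.57 to 0.69 and in 0 TIM tumours. Spr, named after its values were seen, was gained in 2 TI and 3 TIM tumours.

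Pnmt, Cyb561 and Chga were higher in TI than in AGM (exact permutation test, adjusted p = 0.00991 each), 3 of 12 against 6.35% of all genes. With a difference of means, Chga no longer passed (exact permutation, adjusted p = 0.0626). The vesicular transporter gene Slc18a2 and Qdpr, of tetrahydrobiopterin recycling, were lower in the same exact test (adjusted p = 0.00991 each), 2 of 12 against 11.3% of all genes. With a difference of means, neither passed (exact permutation, adjusted p = 0.272 and 0.286). Their medians were -0.021 and 0.0034 in TI, against 0.011 and 0.015 in AGM. After centring on the autosomal median, Slc18a2 no longer passed the exact permutation test (adjusted p = 0.127), whereas Pts was lower (adjusted p = 0.00636). By the exact permutation test of TI against TIM, Pnmt and Cyb561 (adjusted p = 0.0271 each) and Chga (adjusted p = 0.00500) were higher, and Pts (adjusted p = 0.0271), another gene of tetrahydrobiopterin synthesis, was lower. Of all genes, 10.7% were higher and 10.8% lower in this comparison. Slc18a2, Qdpr and Pts were named after their values were seen. In TIM against AGM, 0 of 12 passed. Ddc, on the same chromosome as Pnmt and Cyb561, was gained in 0 TI tumours.

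**Figure D5:**
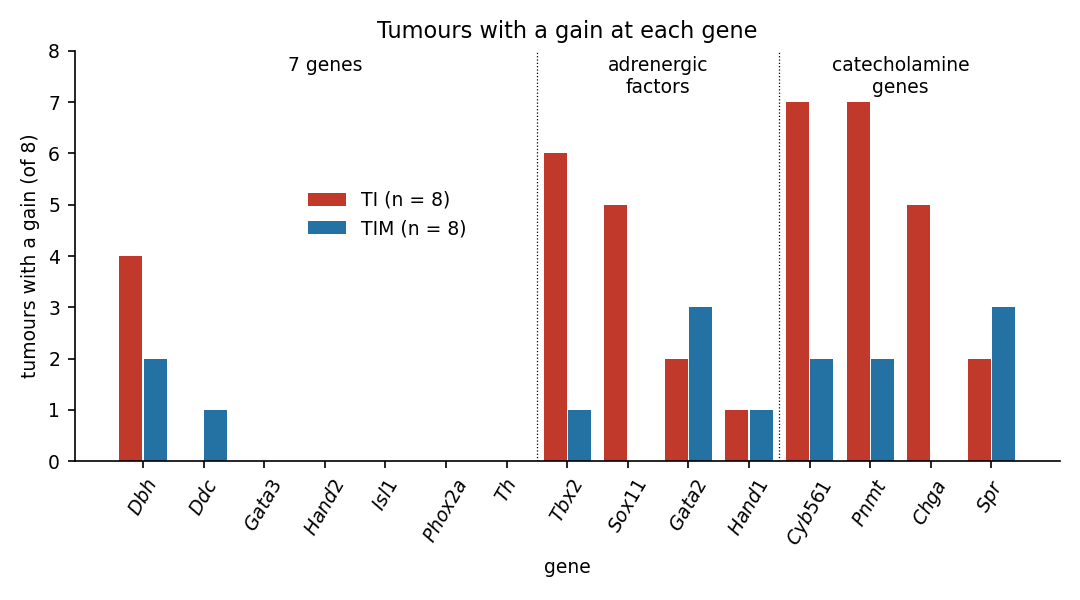
Bars give the number of tumours with a gain (y axis, of 8 in each group) for the 7 genes and for those genes of both wider lists that were gained in at least 1 tumour (x axis), with TI in red and TIM in blue. Dbh has 4 TI and 2 TIM tumours, Ddc has 1 TIM tumour, and the other 5 genes have none. The tallest bars are Pnmt and Cyb561 with 7 TI tumours each.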

How the data were processed

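The 7 genes, the wider lists and the tests were chosen with earlier results of these data known. The authors aligned reads to mm39 with HISAT2 (2.1.0) and determined copy number with cn.MOPS. cutadapt 2.8 and SAMtools 1.10 are named in the submitters' processing notes. The authors deposited, for each of 1485 segments, a median and a mean log2 ratio to wildtype adrenal glands, so a sample without change is near 0, and a copy number that equals 2 copies at a log2 ratio of 0 (1485 of 1485 segments). The window and segmentation settings are not given in the sources used here. Starts lie on multiples of 20 kb, with segments of 40 kb and longer. The study states a low nominal coverage, but the depth of each sample and segment is unknown here, so no interval that needs it is given, and events below this resolution were not detectable. All 19 autosome lengths equalled GRCm39, and no pair of samples was identical (0 of 210).

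Gene positions were taken from GENCODE M39. The level of a gene is the mean of segment medians weighted by overlap. Gains were at least 0.3 and losses at most -0.4. Groups from the labels entered two-sided exact permutation tests on rank sums, and numbers of gains entered Fisher's exact test, with Benjamini-Hochberg (BH) adjustment over 20621 genes and a threshold of 0.05. The tests were checked on simulated data. Named were the 7 genes, genes of the wider lists gained or lost in at least 4 tumours of a group or with the highest or lowest count of their list, protein-coding genes in the short Dbh region, the nearest genes with the same values, and the 3 genes of other chromosomes most like Dbh. Some genes of the wider lists enter the counts but are not reported here. Alternatives were other thresholds (0.2 and -0.2, 0.5 and -0.6), the whole-number copy number, segment means, centring, a difference of means, the whole gene body, a replicate block, and subsets of tumours. Leaving out TI tumours and the subsets for Isl1 were added after seeing the data. Tools were scipy 1.17.1, numpy 2.4.6 and pandas 2.3.3 under Python 3.11.15, with figures from matplotlib 3.10.9.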

Additional observations from a re-analysis of the deposited data

Results flagged for a closer look

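In sets of 5 or 8 samples of 1 group, a highest or lowest value was picked out where its gap to the next value was large for the range of the group (Dixon's criterion at 95%). Of 21 sets, 9 held such a value, where chance gives about 1.05 of 21. The 21 sets are not independent, since Dbh and Gata3 share segments. In TIM 9, Ddc was at 0.34 against at most 0.026 in the other TIM tumours, Hand2 at 0.036 against at most 0.013 and Th at 0.030 against at most 0.011. In TI 5, Ddc was at 0.23 against at most 0.037 in the other TI tumours, and Gata3 at 0.24 against at most 0.042. Hand2 was at 0.095 in TI 4 against at most 0.042. In AGM 5, Dbh and Gata3, on the same segment, were both at 0.0079 against at least 0.013 in the other glands. Isl1 was at 0.0187 in AGM 2 against at most 0.0153. No value of Dbh in TI or TIM was picked out.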

How the results depend on the processing

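Of 178 alternative values for 25 results, 159 kept direction and side of the threshold, read for single genes on the unadjusted p at 0.05. The gain at Dbh was found in the same numbers, 4 TI and 2 TIM tumours, at thresholds of 0.2 or 0.5, with the whole-number copy number and over the whole gene body (Fisher's exact p = 0.608 each). Counting only regions under 1 Mb, which leaves out TI 5, gave 3 and 2 (Fisher's exact p = 1). Centring each sample on its autosomal median moved Dbh past an unadjusted 0.05 in TI against AGM (exact permutation p = 0.0295) and in TIM against AGM (p = 0.0319), and turned the direction of Ddc, Phox2a, Hand2 and Gata3 in TI against AGM (p = 0.222, 0.354, 0.0295 and 0.284), of Th, Ddc, Phox2a and Isl1 in TIM against AGM (p = 0.524, 0.524, 0.222 and 0.435) and of Ddc and Phox2a in TI against TIM (p = 0.574 and 0.959). The segment mean turned Ddc in TI against TIM (exact permutation p = 0.721) and moved Hand2 in TIM against AGM to p = 0.0256 (adjusted 0.0931). The number of the 7 genes past the adjusted threshold in TI against AGM fell from 1 to 0 with segment means and with a difference of means, and stayed at 1 without each AGM gland. Over all genes, a difference of means called 669 higher and 1 lower in TI than in AGM, against 1309 and 2337 by ranks. With it, Sox11, Chga, Qdpr and Slc18a2 no longer passed in TI against AGM (exact permutation, adjusted p = 0.0626, 0.0626, 0.286 and 0.272). For Isl1 in TI against TIM, the adjusted p was 0.0657 with +/+ tumours only and 0.0647 outside the adrenal gland. Leaving out each AGM gland gave p from 0.683 to 1 for Dbh in TI against AGM and from 0.683 to 1 in TIM against AGM. Gata3 in TIM against AGM reached an exact permutation p = 0.0485 without AGM 5 (adjusted 0.486).

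Replicate numbers are names here. In both comparisons with AGM, same-numbered samples did not deviate together over genes, with no correlation over 0.1. In TI against TIM, these correlations ran from -0.365 to 0.409, with 2 of 5 pairs over 0.1. With the replicate block, the exact permutation p of Dbh was 0.25, 0.75 and 0.375 and that of Isl1 0.0625, 0.75 and 0.0625 for TI against AGM, TIM against AGM and TI against TIM. The smallest p such a test allows is 0.0625 with 5 pairs and 0.25 with 3.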

Other observations

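Factors of the mesenchymal state, the counterpart of the adrenergic state in neuroblastoma, were measured the same way. Of 10 such genes, 2 were gained in at least 1 tumour and 3 were lost in at least 1 tumour, against 25.4% and 9.35% of all genes. Twist1 was gained in 5 TI tumours at 0.50 to 0.64 and Prrx1 in 1 TI tumour at 0.34. Runx1, Yap1 and Tbx18 reached -0.98, -0.63 and -0.45 at the lowest in TI. In TIM, 0 of the 10 were gained, against 2828 of all 20621 genes (13.7%). By the exact permutation test with adjustment over all genes, Twist1 was higher (adjusted p = 0.00991) and Fosl1 lower (adjusted p = 0.00991) in TI than in AGM, where 6.35% and 11.3% of all genes were. The same exact test found Twist1 higher (adjusted p = 0.00500) and Runx1, Yap1 and Tbx18 lower (adjusted p = 0.0484, 0.0484 and 0.0371) in TI than in TIM, where 10.7% and 10.8% of all genes were. Fosl1 no longer passed after centring (exact permutation, adjusted p = 0.127), nor Runx1 with segment means (adjusted p = 0.0719). After centring, Notch2, Wwtr1, Yap1 and Tbx18 were lower in TI than in AGM (exact permutation, adjusted p = 0.00636 each). This makes 4 of 10 lower in place of 1, where 3331 of all 20621 genes were lower in place of 2337. Notch2 was then also lower in TI than in TIM (exact permutation, adjusted p = 0.0289), where 2441 of all genes were. With a difference of means, Twist1 and Fosl1 in TI against AGM (exact permutation, adjusted p = 0.0626 and 0.272) and Runx1 in TI against TIM (0.0893) no longer passed. The genes other than Twist1 were named after their values were seen.

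Of 378 genes of an adrenergic expression signature listed by the study, 357 were matched to autosomal protein-coding genes. Of these, 102 (28.6%) were gained in at least 1 tumour, 35 (9.80%) in at least 4 TI tumours and 31 (8.68%) lost in at least 1 tumour. The shares over all genes were 25.4%, 7.48% and 9.35%. In TI against AGM, 32 of the 357 (8.96%) were higher and 61 (17.1%) lower by the exact permutation test, against 6.35% and 11.3% of all genes. In TI against TIM, 38 (10.6%) were higher and 64 (17.9%) lower, against 10.7% and 10.8%. Signature genes on shared segments are not independent, and no test of the list was made.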
